A study of Mus musculus with 4 samples.

Results

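Transcripts of 33 mouse genes that carry, read out or restrain signalling through the RAF-MEK-ERK branch of the MAPK pathway were followed in B16-F10 melanoma cells. The genes were picked by name, with earlier results of these data known. They comprised 7 AP-1 subunits (Fos, Fosb, Fosl1, Fosl2, Jun, Junb and Jund) and 11 other immediate early genes (Egr1, Egr2, Egr3, Ier2, Ier3, Ier5, Klf2, Klf4, Klf6, Klf10 and Nr4a1). The others were 5 MAPK phosphatases (Dusp1, Dusp2, Dusp4, Dusp5 and Dusp6), 4 Sprouty and Spred genes (Spry2, Spry4, Spred1 and Spred2), 2 PEA3 factors (Etv4 and Etv5) and 4 kinases of the cascade (Braf, Map2k1, Map2k2 and Mapk3). All 33 were found among the 53465 genes of the count table, and 32 passed the filter on low counts, as did 12320 genes in all. Fosl1, the subunit FRA1 of AP-1, was too low to test, with 0 and 1 reads in extravasated and 6 and 1 reads in not extravasated libraries.

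B16-F10 is a pigmented mouse melanoma line used as a model of metastasis. Fluorescent cells were infused into zebrafish, and polyA RNA from IMDM cultures with serum was sequenced in 4 libraries, and the labels name no genetic change in either group. The comparison set 2 libraries marked as extravasated (cells that left the vessels) against 2 marked as not extravasated (infused cells that took no part in leaving), which the design text calls the control. The growth text attached to all 4 libraries describes cells that extravasated as clusters and were isolated from the fish, so the grouping here follows the yes or no entry on extravasation and the sample source. The titles carry 1 number for both extravasated libraries and another for both not extravasated ones, and what it marks is unknown; an effect of it and of extravasation cannot be told apart. Nothing in the labels states that each library was its own culture, and the p-values thus rest on a spread between samples that may be purely technical. The numbers 1 and 2 after a group name only name its libraries.

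In the cascade, RAF kinases such as BRAF phosphorylate the MEK kinases (Map2k1 and Map2k2), and these activate the ERK kinases (Mapk3 is ERK1). Active ERK switches on immediate early genes, which need no new protein synthesis and whose mRNAs last for minutes to a few hours, and it also raises its own brakes: nuclear and cytoplasmic phosphatases of the DUSP family and the Sprouty and Spred proteins, which hold back RAS and RAF. Transcripts of Dusp6, Spry2, Spry4, Etv4 and Etv5 are used in melanoma as readouts of sustained ERK output, while Fos and Egr1 also answer serum, stress and handling of cells within minutes.

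Library totals ranged over 13256522 and 19674733 counts in extravasated and 11705904 and 16430477 counts in not extravasated libraries, and mitochondrially encoded genes took 6.51 to 8.88% of them. The 6 pigment cell genes checked (Pmel, Tyr, Mlana, Dct, Sox10 and Mitf) all passed the filter and summed to 19847 and 20890 CPM (reads scaled to equal library sizes) in extravasated and 16321 and 13438 CPM in not extravasated libraries. Sox10 and Pmel were called higher and Mitf and Tyr lower in extravasated cells. After correction for GC content, Tyr and Mlana were called higher. Of the markers of other cell types, Ptprc (leukocytes), Cdh5 and Kdr (endothelium), Epcam and Krt8 (epithelium) and Hba-a1 and Hbb-bs (red cells) had no read in any library. The 3 leukocyte markers summed to 5.38 and 4.53 CPM in extravasated and 5.21 and 4.98 CPM in not extravasated libraries, from Cd68 and Lyz2, of which neither was called. The 3 fibroblast markers summed to 8.10 and 8.27 CPM in extravasated and 6.42 and 8.04 CPM in not extravasated libraries; Col1a1 was called higher and Pdgfra lower (log2 fold changes 0.83 and -1.46), neither after correction for GC content. The epithelial sum, from Cdh1, and the endothelial sum, from Pecam1, stayed at or under 1.16 CPM, and Cdh1 was not called. All these markers are mouse genes counted on the mouse genome, so they could not show cells of the zebrafish. The part of other cell types in the results was not tested. Fold changes over the whole table followed the base composition of the transcripts: across 11122 nuclear coding genes, which are not independent replicates, Spearman's rho between fold change and transcript GC content was 0.74. A fit corrected for GC content and length, which brought that rho to 0.01, is therefore given beside the uncorrected one. The tested members had a median GC content of 54.5% (41.2 to 67.1%), against 50.4% for the nuclear coding genes.

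Of the 32 tested members, 9 differed between the groups, 5 of them higher and 4 lower in extravasated cells (quasi-likelihood test of edgeR with Benjamini-Hochberg adjustment over all 12320 genes, threshold 0.05). That is 28.1% of the members, against 45.1% of all tested genes. The higher members were Map2k2, Dusp4, Jund, Nr4a1 and Mapk3 (15.6%, against 19.1% of all genes), and the lower members were Braf, Egr2, Spred1 and Klf6 (12.5%, against 25.9%). The median log2 fold change of the tested members was 0.10 and that of all tested genes was -0.02. DESeq2 and limma-voom also called 9 members each, against 41.6% and 44.8% of all genes. After the correction 1 member, Map2k2, was called higher (3.12% of the members, against 8.24% of all genes) and none lower (against 5.8%), or 14% of all genes in either direction. The corrected median was -0.07, against 0.04 over all tested genes. In these bulk cultures, fewer cells that express a gene and less RNA per cell cannot be told apart.

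**Figure D1:**
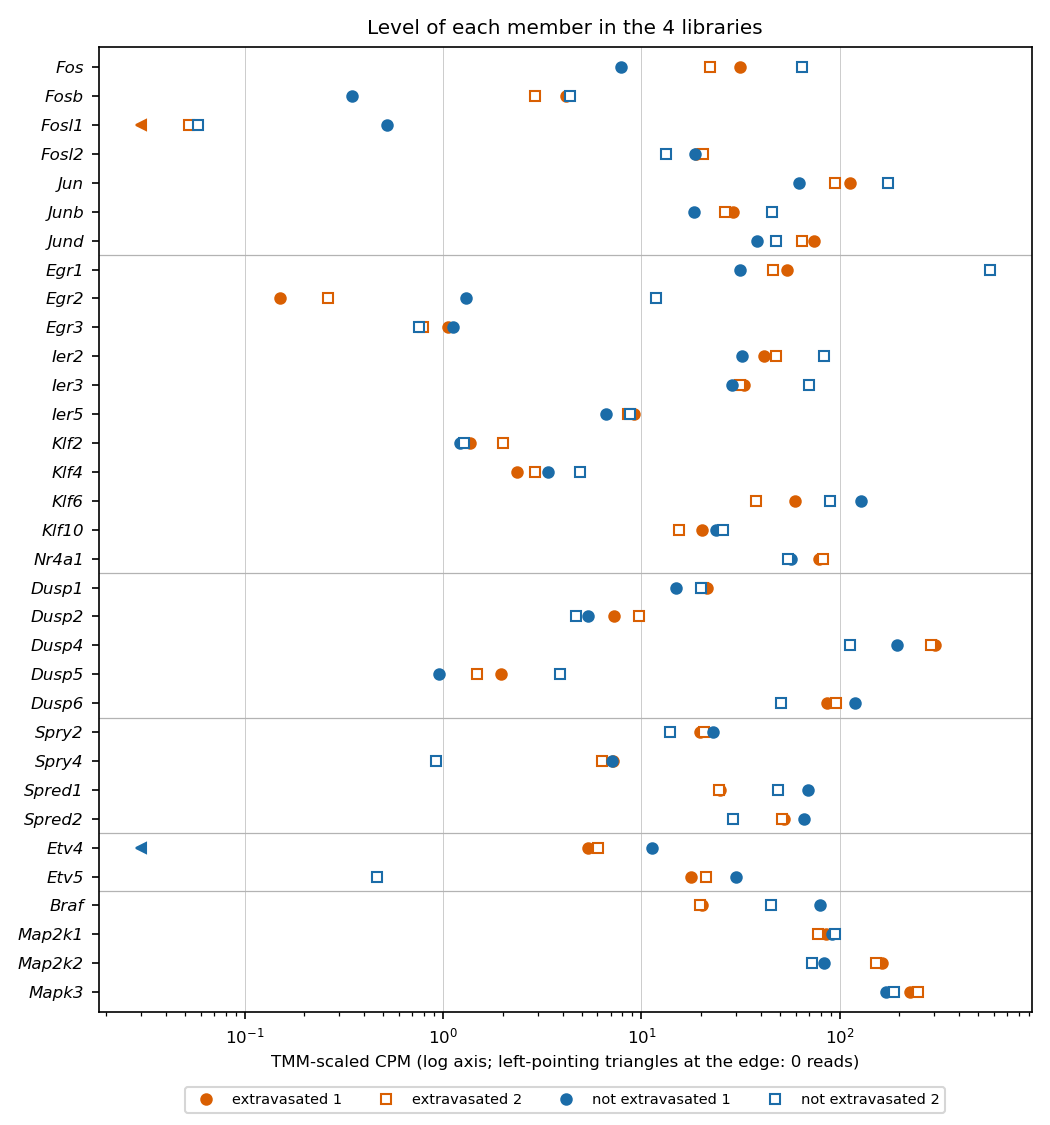
Level of each of the 33 genes in each library, in TMM-scaled CPM on a log axis, ordered by class; orange symbols are extravasated and blue symbols not extravasated libraries, and triangles at the left edge mark 0 reads. The 2 extravasated symbols lie close together in most rows, whereas the open blue square (not extravasated 2) stands far to the right for Egr1, Egr2 and Fos and far to the left for Spry4, Etv4 and Etv5.

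Among the kinases, Map2k2 was higher and Braf lower in extravasated cells. Map2k2 (MEK2; GRCm38 chr10:81105915-81133975) stood at 164 and 153 CPM in extravasated and 83.4 and 72.3 CPM in not extravasated libraries. The groups did not overlap, and the log2 fold change was 1.03 ± 0.134 (SE; edgeR adjusted p = 0.00156), a 2.04-fold higher level. Corrected for GC content and length it was 0.54 ± 0.139 (edgeR adjusted p = 0.0413), and Map2k2 was the one member called in both fits. Without extravasated 1 or without extravasated 2 the corrected call of Map2k2 was lost, as were all corrected calls among the members (against 1.05% and 0.0157% of all genes still called).

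Braf (chr6:39603237-39725463), the RAF isoform most often mutated in melanoma, had 20.2 and 19.6 CPM in extravasated and 79.3 and 45.1 CPM in not extravasated libraries. Both extravasated libraries lay below both others, at a log2 fold change of -1.64 ± 0.273 (edgeR adjusted p = 0.00519). Its transcript has 42.6% GC, and the corrected log2 fold change was -0.13 (edgeR adjusted p = 0.616). Mapk3 (ERK1) had 225 and 249 CPM in extravasated and 170 and 188 CPM in not extravasated libraries, without overlap. It was 1.33-fold higher (edgeR adjusted p = 0.0318), and its corrected log2 fold change was -0.10 (edgeR adjusted p = 0.600). Map2k1 (MEK1) stood at 84.8 and 78.0 CPM in extravasated and 91.0 and 94.4 CPM in not extravasated libraries, and its log2 fold change of -0.19 was not called (edgeR adjusted p = 0.257).

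Levels per transcript length placed Mapk3 first among the members, at a mean of 116 CPM per kilobase over the 4 libraries. Dusp4 had 81.7 and Map2k2 49.1 CPM per kilobase. Map2k1 had 35.7 and Braf 4.22 CPM per kilobase. Egr3 and Fosl1 were the lowest, at 0.237 and 0.0847 CPM per kilobase.

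The PEA3 factors Etv4 and Etv5, ETS-family transcription factors that ERK signalling induces, did not differ between the groups, but they split the not extravasated libraries further than any other tested member. Etv5 (chr16:22381309-22439719) had 17.7 and 21.1 CPM in extravasated and 29.9 and 0.463 CPM in not extravasated libraries. The last value rests on 8 reads, and the 2 not extravasated libraries lie on either side of the extravasated pair, 64.7-fold apart. Etv4 (chr11:101769742-101785371) had 5.38 and 6.06 CPM in extravasated and 11.3 and 0 CPM in not extravasated libraries. Set at a floor of 3 reads per library, or 0.173 CPM, not extravasated 2 lay at least 65.0-fold below not extravasated 1 and at least 31.0-fold below the lower extravasated library. With all 4 libraries the log2 fold changes were 0.09 ± 1.57 for Etv4 and 0.39 ± 1.58 for Etv5 (edgeR adjusted p = 0.970 and 0.861). Without not extravasated 2, both were lower in extravasated cells, with log2 fold changes of -0.97 and -0.62 (edgeR adjusted p = 0.00260 and 0.0115). Without not extravasated 1, Etv5 was higher by 5.37 on the log2 scale (edgeR adjusted p = 3.2e-26), and Etv4 was called higher too.

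Spry4, a Sprouty inhibitor of receptor tyrosine kinase signalling, showed the same library standing low. It had 7.19 and 6.32 CPM in extravasated and 7.12 and 0.926 CPM in not extravasated libraries, the last from 16 reads. The other three libraries were close together, and not extravasated 2 lay 7.69-fold below not extravasated 1. Its log2 fold change was 0.81 ± 0.825 (edgeR adjusted p = 0.467), against -0.07 without not extravasated 2 and 2.85 without not extravasated 1. Spred2, which binds RAS pathway components at the membrane, had 52.2 and 51.0 CPM in extravasated and 65.9 and 29.0 CPM in not extravasated libraries, with the extravasated pair between the others. Spry2 stood at 19.8 and 20.6 CPM in extravasated and 23.0 and 14.0 CPM in not extravasated libraries, again between them.

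Spred1, the Spred gene that recruits neurofibromin to RAS, was the one inhibitor of this class to differ between the groups. Spred1 (chr2:117121374-117182279) had 25.0 and 24.5 CPM in extravasated and 68.9 and 48.7 CPM in not extravasated libraries. The groups did not overlap, and Spred1 was 2.37-fold lower in extravasated cells (log2 fold change -1.24 ± 0.192; edgeR adjusted p = 0.00272). It has the lowest GC content of the tested members, 41.2%, and its corrected log2 fold change was 0.11 (edgeR adjusted p = 0.589). Summed over the 4 Sprouty and Spred genes, levels were 104 and 102 CPM in extravasated and 165 and 92.6 CPM in not extravasated libraries, and the median log2 fold change of the class was 0.13.

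Of the 5 phosphatases, 1 was called. Dusp4 (chr8:34807297-34819894), a nuclear phosphatase of ERK and the most abundant phosphatase here per length, had 302 and 288 CPM in extravasated and 193 and 112 CPM in not extravasated libraries. Both extravasated libraries were above both others, 1.93-fold on average (log2 fold change 0.95 ± 0.254; edgeR adjusted p = 0.0273). The corrected value was 0.57 ± 0.246 (edgeR adjusted p = 0.170). Dusp2, another nuclear phosphatase, had 7.27 and 9.69 CPM in extravasated and 5.38 and 4.69 CPM in not extravasated libraries. Its groups did not overlap and its log2 fold change was 0.76 ± 0.268, just outside the threshold (edgeR adjusted p = 0.0501).

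Dusp6, the cytoplasmic phosphatase specific for ERK, had 86.6 and 95.4 CPM in extravasated and 119 and 50.4 CPM in not extravasated libraries. The extravasated pair lay between the not extravasated libraries, which were 2.35-fold apart, and the log2 fold change was 0.11 ± 0.391 (edgeR adjusted p = 0.836). Dusp5, a nuclear phosphatase of ERK, had 1.97 and 1.47 CPM in extravasated and 0.955 and 3.88 CPM in not extravasated libraries. Here the order of the not extravasated libraries was the reverse of that for Dusp6, with not extravasated 2 at 4.06-fold the other. Dusp1, a nuclear phosphatase that acts mainly on JNK and p38, had 21.4 and 20.3 CPM in extravasated and 14.9 and 20.0 CPM in not extravasated libraries (log2 fold change 0.25; edgeR adjusted p = 0.335).

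Of the 6 AP-1 subunits tested, Jund alone differed between the groups. Jund, a subunit present in most resting cells, had 74.2 and 64.1 CPM in extravasated and 38.3 and 47.4 CPM in not extravasated libraries. The groups did not overlap and it was 1.61-fold higher in extravasated cells (log2 fold change 0.69 ± 0.162; edgeR adjusted p = 0.0121). With 67.1% GC it is the most GC-rich tested member, and its corrected log2 fold change was 0.06 (edgeR adjusted p = 0.792). Fosl2 (FRA2) had 18.9 and 20.3 CPM in extravasated and 18.7 and 13.3 CPM in not extravasated libraries, a log2 fold change of 0.31 that was not called (edgeR adjusted p = 0.279).

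The inducible AP-1 subunits Fos, Fosb, Jun and Junb were instead higher in not extravasated 2 than in not extravasated 1, an order that Fosl2 did not share. Fos (chr12:85473890-85477273) had 31.3 and 22.2 CPM in extravasated and 7.90 and 64.8 CPM in not extravasated libraries, so the extravasated pair lay between not extravasated libraries that were 8.20-fold apart. Fosb had 4.16 and 2.90 CPM in extravasated and 0.347 and 4.34 CPM in not extravasated libraries, with not extravasated 1, at 4 reads, standing apart from the other three. Jun had 113 and 95 CPM in extravasated and 62.4 and 175 CPM in not extravasated libraries. Junb, a partner of FOS proteins that can also oppose JUN, had 28.8 and 26.3 CPM in extravasated and 18.5 and 45.3 CPM in not extravasated libraries. For Fos, Jun and Junb alike the extravasated libraries lay between the others, and none of the 4 genes was called with all libraries (edgeR adjusted p = 0.681 to 0.755).

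Egr1 and Egr2, zinc finger factors that serum and growth factors induce, stood far higher in not extravasated 2 than in any other library. Egr1 had 54.4 and 46.0 CPM in extravasated and 31.4 and 569 CPM in not extravasated libraries, the highest resting on 9834 reads. Not extravasated 2 was 18.1-fold above not extravasated 1, while the other three libraries were within 2-fold of each other. The log2 fold change was -2.58 ± 1.58 (edgeR adjusted p = 0.283). Egr2 (chr10:67535475-67542188) had 0.151 and 0.263 CPM in extravasated and 1.3 and 11.8 CPM in not extravasated libraries, from 2, 5, 15 and 204 reads. The extravasated libraries were the lowest, at a log2 fold change of -4.91 ± 1.27 (edgeR adjusted p = 0.0285), and the corrected value of -5.00 missed the threshold (edgeR adjusted p = 0.0558). Without not extravasated 2 the log2 fold change of Egr2 was -2.54 (edgeR adjusted p = 0.0167). Without extravasated 1 or extravasated 2 it was -4.56 and -5.37 and was not called (edgeR adjusted p = 0.162 and 0.186). Egr3 had 1.06 and 0.790 CPM in extravasated and 1.13 and 0.752 CPM in not extravasated libraries (edgeR adjusted p = 0.986), and the groups overlapped.

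The IER genes are small immediate early genes named for their rapid induction. Ier2 had 41.3 and 47.7 CPM in extravasated and 32.2 and 83.4 CPM in not extravasated libraries. Ier3, which affects survival under stress, had 32.7 and 31.2 CPM in extravasated and 28.5 and 69.6 CPM in not extravasated libraries. Both were highest in not extravasated 2, by 2.59-fold and 2.45-fold over not extravasated 1, and neither differed between the groups (edgeR adjusted p = 0.510 and 0.266). Ier5 showed no such split, with 9.16 and 8.53 CPM in extravasated and 6.60 and 8.74 CPM in not extravasated libraries.

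Klf6 and Nr4a1 were called in opposite directions. Klf6 (chr13:5861482-5870394), a Krüppel-like zinc finger factor, had 59.1 and 37.8 CPM in extravasated and 127 and 89.2 CPM in not extravasated libraries, without overlap. It was 2.24-fold lower in extravasated cells (log2 fold change -1.16 ± 0.268; edgeR adjusted p = 0.0165), and at 42.4% GC its corrected log2 fold change was -0.04 (edgeR adjusted p = 0.915). Nr4a1 (chr15:101254269-101274795), an orphan nuclear receptor also called NUR77, had 78.9 and 82.7 CPM in extravasated and 56.8 and 54.7 CPM in not extravasated libraries. The means were 80.8 ± 2.71 CPM in extravasated and 55.8 ± 1.43 CPM in not extravasated libraries (SD, n = 2 each), and Nr4a1 was 1.45-fold higher (edgeR adjusted p = 0.0129), with a corrected log2 fold change of 0.11 (edgeR adjusted p = 0.561).

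The remaining Krüppel-like factors were not called. Klf10, a TGF-beta-inducible early gene, had 20.3 and 15.5 CPM in extravasated and 23.9 and 25.9 CPM in not extravasated libraries (edgeR adjusted p = 0.0776). Klf4 had 2.35 and 2.90 CPM in extravasated and 3.39 and 4.92 CPM in not extravasated libraries, and Klf2 had 1.36 and 2.0 CPM in extravasated and 1.22 and 1.27 CPM in not extravasated libraries. For Klf10 and Klf4 the extravasated libraries were the lower ones and for Klf2 the higher ones, each without overlap. In all, 9 tested members had both extravasated libraries above both others (28.1%, against 37.3% of all genes) and 7 had both below (21.9%, against 39%).

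**Figure D2:**
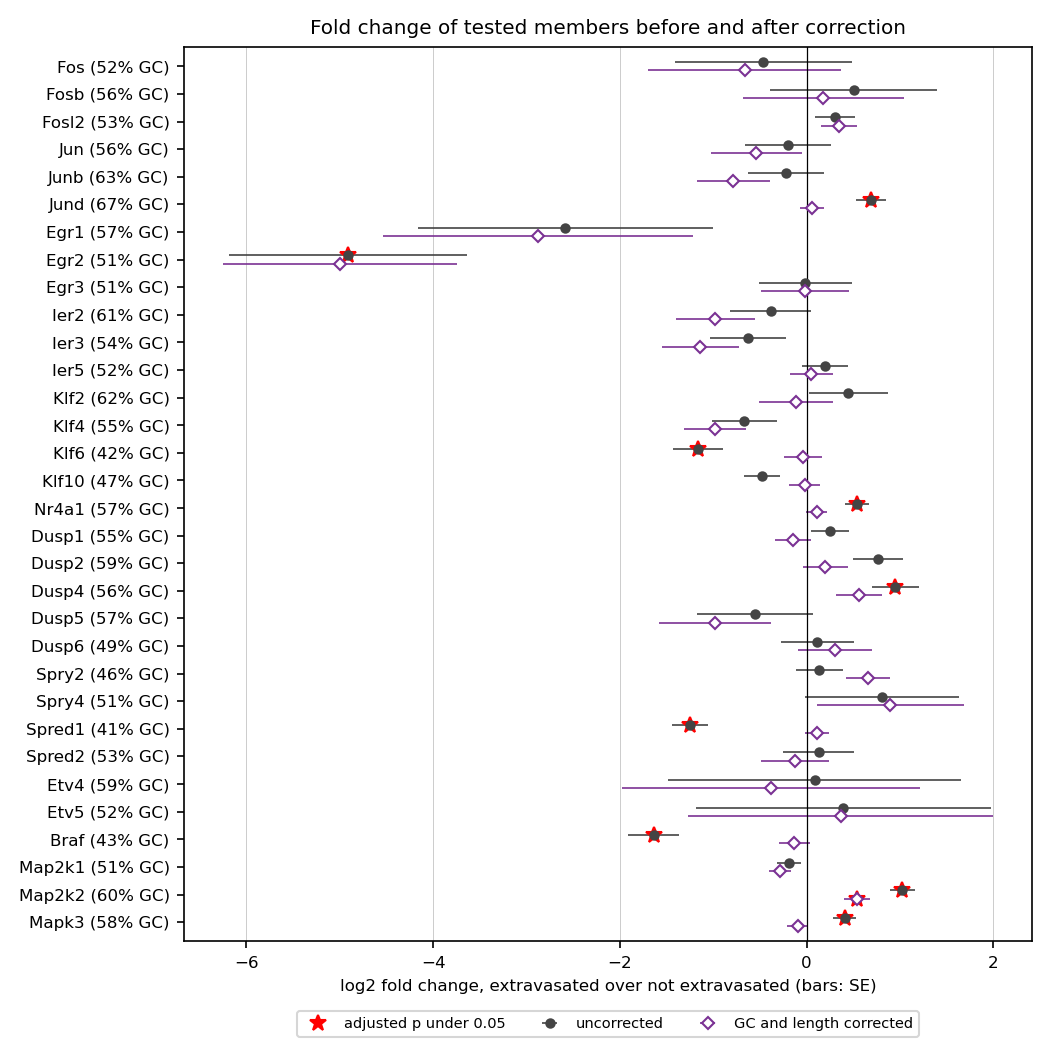
Log2 fold change of extravasated over not extravasated libraries for the 32 tested members, uncorrected (filled circles) and corrected for transcript GC content and length (open diamonds), with bars of 1 SE; red stars mark an adjusted p under 0.05 and the GC content of each transcript stands after its name. Members at the extremes of GC content (Spred1, Klf6 and Braf, and at the other end Jund) move to near 0 with the correction, whereas Egr1, Egr2, Etv4 and Etv5 have wide bars in both fits.

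The wide bars came from the not extravasated pair. Its 2 libraries were at least 2-fold apart for 14 of the 32 tested members (43.8%), against 6.62% of all tested genes. Not extravasated 2 was the higher one for 9 members (28.1%, against 1.75%): Fos, Fosb, Jun, Junb, Egr1, Egr2, Ier2, Ier3 and Dusp5. It was the lower one for 5 members (15.6%, against 4.87%): Dusp6, Spry4, Spred2, Etv4 and Etv5. The first set holds immediate early genes and 1 phosphatase, and the second holds feedback genes and PEA3 factors. Between the extravasated libraries no tested member was 2-fold apart, against 3.03% of all tested genes. These are comparisons of single libraries and carry no test between conditions. The members were chosen with earlier results of these data known, so their shares describe the list and do not test it.

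**Figure D3:**
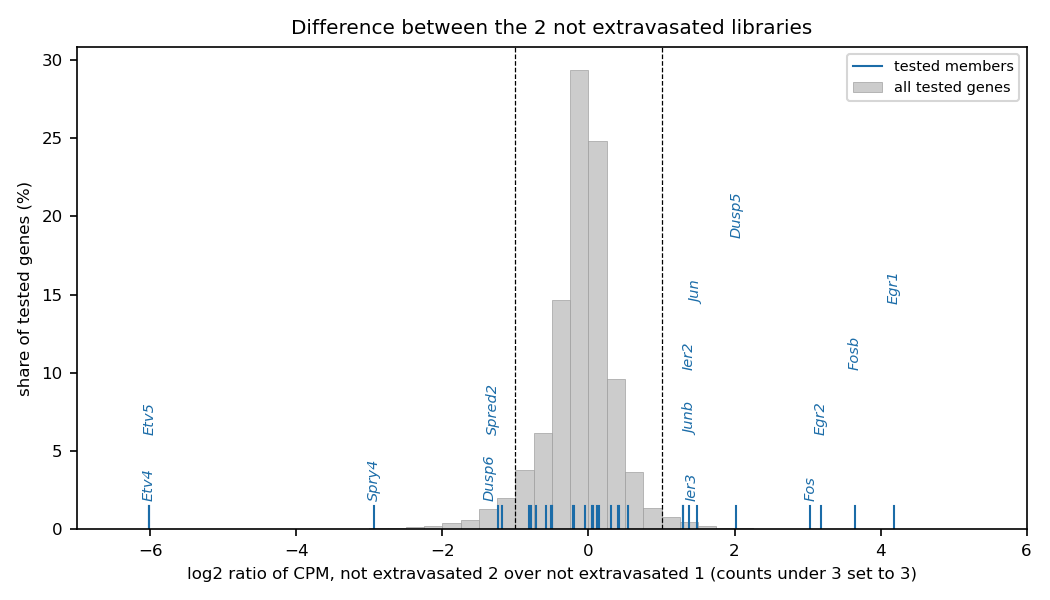
Log2 ratio of CPM in not extravasated 2 over not extravasated 1 for all 12320 tested genes (grey bars, share of genes in percent) and for the 32 tested members (blue ticks), with dashed lines at 2-fold either way and counts under 3 set to 3. Names mark the 14 members outside the lines: 9 on the right, up to Egr1 at 18.1-fold, and 5 on the left, with Etv4 and Etv5 farthest out.

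Measured against all 3 other libraries, not extravasated 2 was at least 2-fold above the highest of them for Fos, Egr1, Egr2 and Ier3 (12.5% of tested members, against 0.593% of all genes) and at least 2-fold below the lowest for Spry4, Etv4 and Etv5 (9.38%, against 1.22%). Not extravasated 1 lay outside the range of the others by that much for Fos and Fosb, in both cases below (6.25%, against 2.7% either way). Neither extravasated library did so for any tested member (against 0.877% and 0.95%). Summed by class, the EGR, IER, KLF and NR4A genes reached 301 and 275 CPM in extravasated and 314 and 919 CPM in not extravasated libraries. The AP-1 genes summed to 270 and 231 CPM in extravasated and 147 and 350 CPM in not extravasated libraries, and the PEA3 factors to 23.1 and 27.1 CPM in extravasated and 41.2 and 0.463 CPM in not extravasated libraries. The kinases did not share the split, at 494 and 500 CPM in extravasated and 424 and 399 CPM in not extravasated libraries, and none of them differed 2-fold within a group.

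Heat shock genes and other library measures were set beside this split. The 8 heat shock genes checked summed to 6521 and 6598 CPM in extravasated and 6911 and 6208 CPM in not extravasated libraries. Of them 6 were tested, and none of these was 2-fold apart between the not extravasated libraries. Hspb1 and Hspa1a were not tested, and Hspa1a had no read in any library. Mitochondrially encoded genes took 8.21% of counts in not extravasated 1 and 7.12% in not extravasated 2, within the span of the extravasated libraries. Across the 32 tested members, Spearman's rho between that library ratio and GC content was 0.36, against 0.25 over the nuclear coding genes, as a description of genes that share their libraries. The part of handling, cell density, serum or time to harvest in the split was not tested.

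The choice of not extravasated library set the direction for many members. With not extravasated 1 left out, 24 of the 32 members were called, 11 higher and 13 lower in extravasated cells (75%, against 48.8% of all genes, of which 21.5% higher and 27.3% lower), and with not extravasated 2 left out 18 were called, 11 higher and 7 lower (56.2%, against 47.5%, of which 19.4% higher and 28.1% lower). In these fits the lone library is assumed to vary like the extravasated pair. Fos had a log2 fold change of -1.28 against not extravasated 2 alone and 1.76 against not extravasated 1 alone (edgeR adjusted p = 2.61e-09 and 1.42e-10). For Egr1 the same fits gave -3.50 and 0.68 (edgeR adjusted p = 4.9e-58 and 0.00186), and for Jun -0.76 and 0.74 (edgeR adjusted p = 1.47e-05 and 0.000121). Junb and Ier2 turned the same way, and Dusp6, Etv4 and Etv5 were higher against not extravasated 2 alone and lower against not extravasated 1 alone, each called in both fits. Jund, Nr4a1, Dusp4 and Map2k2 were called higher, and Egr2, Klf6, Spred1 and Braf lower, in both. Without extravasated 1 the calls were Klf6, Nr4a1, Spred1, Braf and Map2k2 (15.6%, against 27.8% of all genes), and without extravasated 2 they were Spred1, lower, and Map2k2, higher (against 10.5% and 4.29% of all genes, 14.7% together). Corrected for GC content and length, the fit without not extravasated 1 called 18 members, 9 in each direction (against 16% higher and 11.9% lower, 27.9% together). The corrected fit without not extravasated 2 called 7: Fos, Fosb and Map2k2 higher (against 11%), and Egr2, Spred2, Etv4 and Etv5 lower (against 7.61%, 18.6% together).

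**Figure D4:**
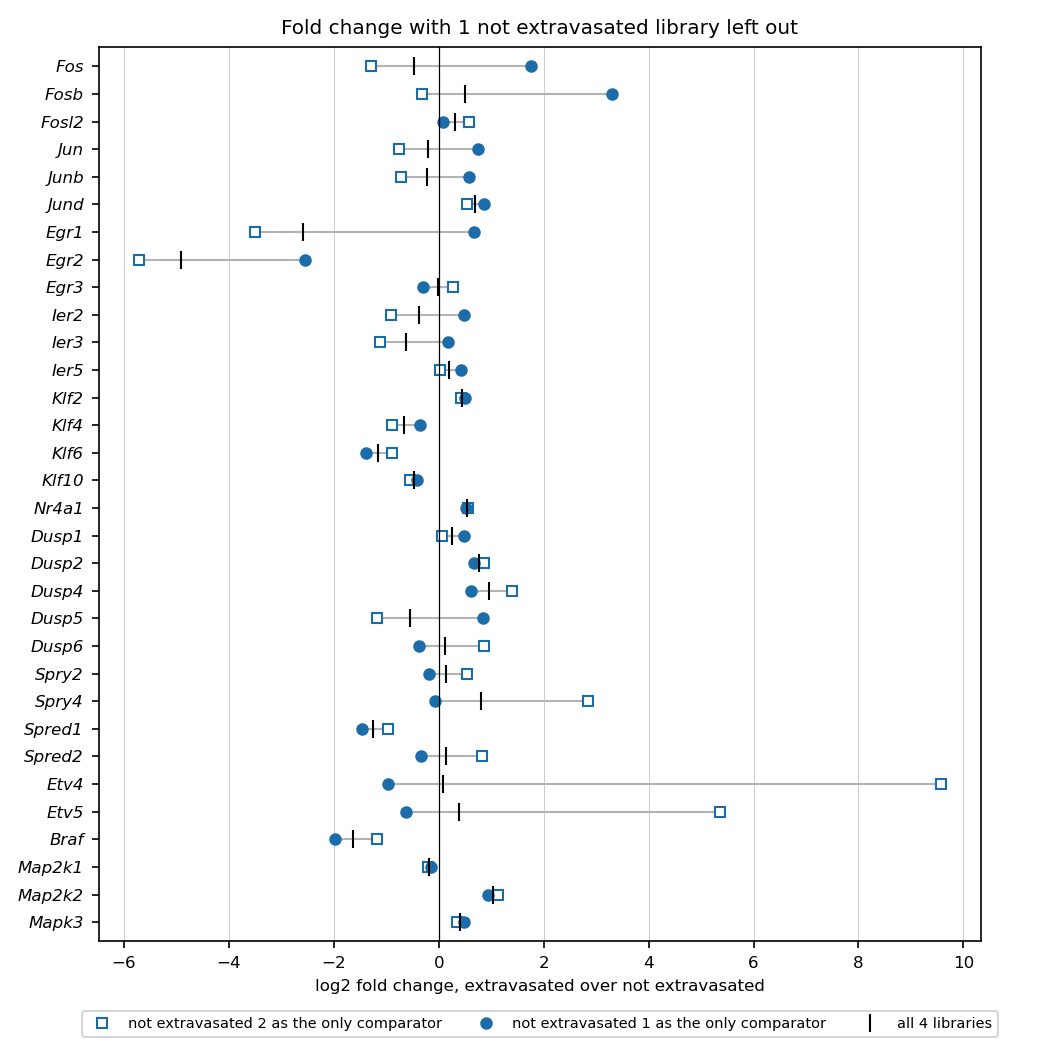
Log2 fold change of extravasated over not extravasated cells for the 32 tested members with not extravasated 2 as the only comparator (open squares), with not extravasated 1 as the only comparator (filled circles) and with all 4 libraries (black ticks). The symbols of Fos, Jun, Egr1 and Etv5 fall on opposite sides of 0, those of Map2k2, Nr4a1, Spred1 and Braf on the same side; the Etv4 square is a fitted value against 0 reads that depends on the prior count and is no bound.

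Promoter sequences from RefSeq (GRCm38.p6; 250 bases before to 50 after a start) were at hand for 24 of the 33 genes, and none for Dusp4, Egr1, Egr3, Etv4, Fosl1, Ier2, Klf10, Mapk3 and Spry4. They were searched on both strands for motifs of factors downstream of ERK. The CArG box, the element bound by serum response factor, was in the windows of Egr2 and Dusp5 (8.33% of the members, against 1.81% of 27025 genes). Both were highest in not extravasated 2. Fos, Fosb, Jun, Junb, Ier3, Klf4 and Map2k1 were also highest there but had no CArG box in their windows. Egr1, Ier2 and Klf10, highest there too, had no window. Sites more than 250 bases before a start or more than 50 after it were not searched for, so these genes may have CArG boxes elsewhere. The CArG boxes are in capitals and start at -72 in the Egr2 window and at -82 and -72 in the Dusp5 window, counted from the start site.
Egr2, chr10:67537619-67537918, plus strand: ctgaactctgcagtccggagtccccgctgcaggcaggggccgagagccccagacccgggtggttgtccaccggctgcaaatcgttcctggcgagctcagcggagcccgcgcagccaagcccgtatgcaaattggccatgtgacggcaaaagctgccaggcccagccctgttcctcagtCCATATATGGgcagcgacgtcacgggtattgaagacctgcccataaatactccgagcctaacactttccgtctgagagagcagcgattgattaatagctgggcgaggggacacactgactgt
Dusp5, chr19:53528895-53529194, plus strand: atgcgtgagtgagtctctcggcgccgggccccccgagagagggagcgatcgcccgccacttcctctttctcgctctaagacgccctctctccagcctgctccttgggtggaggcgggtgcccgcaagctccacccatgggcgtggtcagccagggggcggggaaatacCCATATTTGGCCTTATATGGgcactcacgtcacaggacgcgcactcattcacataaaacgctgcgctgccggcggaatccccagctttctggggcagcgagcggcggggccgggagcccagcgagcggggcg

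The EGR-type motif GCGNGGGCG was in the windows of Dusp2, Fosb, Fosl2, Klf2, Klf4 and Nr4a1 (25% of the members, against 6.27% of all genes). Of these, Fosb was among the genes 2-fold apart between the not extravasated libraries, and Nr4a1 was nearly equal in them; their windows are shown for that contrast, with the motif in capitals at -50 in Fosb and, on the opposite strand, at -60 in Nr4a1.
Fosb, chr7:19309996-19310295, minus strand: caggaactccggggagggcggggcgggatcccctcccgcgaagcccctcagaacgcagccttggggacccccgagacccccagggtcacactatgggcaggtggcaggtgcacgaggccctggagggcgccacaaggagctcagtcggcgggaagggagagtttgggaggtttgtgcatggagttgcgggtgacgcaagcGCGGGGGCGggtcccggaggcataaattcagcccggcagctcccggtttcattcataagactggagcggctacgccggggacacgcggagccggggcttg
Nr4a1, chr15:101266596-101266895, plus strand: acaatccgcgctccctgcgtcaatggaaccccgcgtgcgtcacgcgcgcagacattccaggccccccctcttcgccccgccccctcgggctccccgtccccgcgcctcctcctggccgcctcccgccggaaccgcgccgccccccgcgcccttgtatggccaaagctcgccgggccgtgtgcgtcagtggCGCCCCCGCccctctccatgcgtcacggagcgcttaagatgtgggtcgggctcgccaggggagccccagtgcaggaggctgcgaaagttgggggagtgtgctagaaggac

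The cAMP response element TGACGTCA was in the windows of Braf and Dusp1 (8.33%, against 2.03%). The AP-1 letters TGANTCA (8.97% of all genes) and the ETS letters CCGGAAG (9.93%) were in none of the 24. A match describes the letters in the window and not a bound site. Variants of these letters were not counted, so a missing match does not show that a site is absent. The shares over all genes cover every gene with a promoter entry, tested here or not, and are not matched for base composition. In the 3′ untranslated regions of the annotated transcripts, the AU-rich heptamer TTATTTA, of a kind known to shorten the life of immediate early mRNAs, was in 9 of the 33 genes (27.3%, against 25.4% of the nuclear coding genes tested). It was thus present at about the same share as elsewhere. Single sites, with the heptamer in capitals, are shown for Fos and Egr2, high in not extravasated 2, and for Dusp1 and Klf6, which were not.
Fos, chr12:85477103-85477129, plus strand: tgttttcaatTTATTTAttaagatgga
Egr2, chr10:67541756-67541782, plus strand: gttaactaacTTATTTAaagggggacg
Dusp1, chr17:26506161-26506187, minus strand: gagctggtccTTATTTAtttaacaccc
Klf6, chr13:5868490-5868516, plus strand: gctacgtctcTTATTTAtgccttgagg

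Other genes of the pathway were counted in fixed lists. Of 42 further genes of the RAS-ERK cascade, all tested, 9 were higher and 15 lower in extravasated cells (21.4% and 35.7%, against 19.1% and 25.9% of all tested genes), with a median log2 fold change of 0.00. After correction 5 were higher and 5 lower (11.9% each, against 8.24% and 5.8%). Nras was lower and Hras higher (log2 fold changes -0.60 and 0.78), whereas Araf, a RAF kinase gene, was not called (0.25). With the correction the log2 fold change of Nras was 0.50 and that of Hras 0.43, and neither was called (edgeR adjusted p = 0.0786 and 0.0875). Mknk2, a kinase downstream of ERK, had 310 and 355 CPM in extravasated and 176 and 128 CPM in not extravasated libraries, and was called in both fits (corrected log2 fold change 0.71; edgeR adjusted p = 0.0319). Sos2, a RAS exchange factor, and Map3k1 fell in both, with corrected log2 fold changes of -0.75 and -1.29. The corrected calls of Mknk2, Sos2 and Map3k1 were lost without extravasated 1 (edgeR adjusted p = 0.148, 0.129 and 0.104) and without extravasated 2 (edgeR adjusted p = 0.229, 0.144 and 0.202). Rasa2, a RAS GTPase-activating protein, and Lztr1, an adaptor for RAS degradation, were called lower and higher without the correction only (log2 fold changes -2.08 and 0.70).

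Among 16 other tested regulators of ERK signalling, 1 was higher (Dab2ip, log2 fold change 0.36) and 4 lower, or 6.25% and 25%. The lower ones were led by Rasal2 and Peak1 (-2.17 and -1.65). After correction 1 was higher and 2 lower, Rasal2 and Peak1 (-1.21 and -1.34). The corrected call of Rasal2 was lost without either extravasated library (edgeR adjusted p = 0.0978 and 0.133), and that of Peak1 without extravasated 2 (edgeR adjusted p = 0.0839). Of 34 further immediate early genes tested, 2 were higher (Plk3 and Mafk, 0.86 and 0.70) and 7 lower, among them Klf5, Klf7 and Nr4a2 (-1.93, -1.42 and -1.14), or 5.88% and 20.6%. After correction none was higher and 1 lower, and none of these 5 genes was called (edgeR adjusted p = 0.0939 to 0.371). The JNK and p38 genes had 7 higher and 6 lower of 18 (38.9% and 33.3%), including Rps6ka4 (0.95) and Atf2 (-2.17), and 1 higher and 1 lower, Atf2, after correction. The CREB and ATF partners had 3 higher and 5 lower of 14 (21.4% and 35.7%), including Crtc3 (0.65) and Creb1 (-1.38), and none higher and 1 lower after correction; neither of those named was called then. Over the 137 other pathway genes tested, 24 were higher and 37 lower (17.5% and 27%, against 19.1% and 25.9% of all tested genes), and the median log2 fold change was -0.04, against -0.02 over all tested genes. After correction 7 were higher and 10 lower (5.11% and 7.3%, against 8.24% and 5.8%).

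A list of genes that follow MAPK output showed the low values of not extravasated 2 again. Of its 15 tested genes, 3 were higher (Hmga1, Epha2 and Plk3; log2 fold changes 1.04, 1.0 and 0.86) and none lower (20.0% and 0%, against 19.1% and 25.9% of all tested genes). None was called after correction (edgeR adjusted p = 0.160, 0.196 and 0.371 for those 3). At least 2-fold lower in not extravasated 2 than in not extravasated 1 were 5 of the 15 (33.3%, against 4.87%). This list too was chosen with earlier results of these data known. Of the 34 further immediate early genes tested, 2 were at least 2-fold above and 3 below (5.88% and 8.82%, against 1.75% and 4.87% of all tested genes). The 16 other tested regulators of ERK signalling had 0 either way. Over the 137 other pathway genes tested, this list included, the shares were 1.46% above and 5.84% below. Ccnd1, cyclin D1, had 410 and 404 CPM in extravasated and 475 and 82.7 CPM in not extravasated libraries, the last standing 5.75-fold below its pair. Its log2 fold change was 0.55 ± 0.889 (edgeR adjusted p = 0.662). Phlda1 did not share the drop, at 182 and 225 CPM in extravasated and 203 and 168 CPM in not extravasated libraries, and Epha4 was not called (-0.74).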

How the data were processed

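Gene-level read counts of 4 polyA RNA libraries from B16-F10 cells were analysed as the authors deposited them, raw whole numbers without normalization. STAR 2.5.3a, bcl2fastq 2.18.0.12 and GRCm38 are named per the submitters' processing notes, and a stranded library kit per the labels. The counter, annotation release and strand setting are not given in the sources used here, so overlapping, antisense and near-identical genes are uncertain. Of 53465 identifiers, 53360 matched GENCODE M21 without their version and 105 did not; 32416 had no read. Genes were filtered with edgeR 4.0.16 in R 4.3.3 (minimum count 10, minimum total 15), scaled by TMM and tested two-sided with the robust quasi-likelihood test, extravasated over not extravasated, with group as the sole term. P-values were adjusted by Benjamini-Hochberg over 12320 genes at a threshold of 0.05, and SEs come from fold change and F value. Levels are given as CPM on TMM-scaled totals, and per-length levels use the principal annotated transcript. For the correction, each library's log2 CPM deviations were smoothed on transcript GC content and log2 length (mgcv 1.9.3, basis 10) and entered as an offset. Ratios between libraries set counts under 3 to 3 and carry no test. Alternatives were RLE factors, unscaled totals, DESeq2 1.42.0, limma-voom 3.58.1, no filter, a title suffix term, the longest transcript and leaving out each library. The scripts were tested on simulated data. The members and gene lists were chosen with earlier results of these data known. All members are named. From each other list, up to 3 called genes in each direction with the largest change were eligible, plus Hras, Nras, Araf, Phlda1, Ccnd1, Epha2, Epha4 and some items that are not reported here.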

Additional observations from a re-analysis of the deposited data

How the results depend on the processing

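With all 4 libraries, DESeq2 called the 9 members that edgeR called, and limma-voom, RLE factors and no filter each called Dusp2 (adjusted p = 0.0496, 0.0425 and 0.0376) but not Egr2 (0.113, 0.0609 and 0.0511). Unscaled library totals ended the call of Mapk3 (adjusted p = 0.0713). The title suffix term, for the letter C carried by 1 library of each group, called 6 members higher and 5 lower, gaining Dusp2 and Klf10 (adjusted p = 0.0405 and 0.0480). Egr3 turned to a log2 fold change of 0.012 with DESeq2 and 0.010 with RLE factors, and Fos to 0.016 with limma-voom and 0.096 with the title suffix term; the cause was not tested. No replicate number is shared between groups in the labels, the numbers here follow accession order, and the meaning of that letter is not given, so no other pairing was fitted. The Etv4 values above 9 are fits against 0 reads, depend on the prior count and are no bounds.

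The GC and length correction called 1015 genes higher and 714 lower, against 2355 and 3196 without it, and 1 member higher and 0 lower. It turned the log2 fold change of Araf (-0.12), Dusp1 (-0.15), Epha4 (0.14), Etv4 (-0.38), Klf2 (-0.11), Mapk3 (-0.096), Nras (0.50), Phlda1 (-0.38), Spred1 (0.11) and Spred2 (-0.13). With the longest transcript it called 996 genes higher and 673 lower, again 1 member higher and 0 lower, and turned Creb1 (0.23), Dusp1 (-0.17), Epha4 (0.10), Etv4 (-0.40), Klf2 (-0.13), Mapk3 (-0.11), Nras (0.48), Phlda1 (-0.40) and Spred1 (0.10). Araf (0.85), Creb1 (0.23) and Spred2 (0.14) had the other sign with that transcript than with the principal one, so their corrected values depend on the transcript.

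Leaving out each library in turn gave 545 to 2758 genes higher and 1329 to 3541 lower, and 1 to 11 members higher and 1 to 13 lower. The corrected counts were 0 to 2049 genes higher and 2 to 1517 lower, and 0 to 9 members in either direction. Uncorrected log2 fold changes ranged from -0.22 to 2.30 for Ccnd1, -1.19 to 0.83 for Dusp5, -0.38 to 0.85 for Dusp6, -3.50 to 0.68 for Egr1, -0.30 to 0.27 for Egr3, -0.97 to 9.56 for Etv4, -0.62 to 5.37 for Etv5, -1.28 to 1.76 for Fos, -0.32 to 3.30 for Fosb, -0.91 to 0.47 for Ier2, -1.12 to 0.17 for Ier3, -0.76 to 0.74 for Jun, -0.72 to 0.58 for Junb, -0.35 to 0.83 for Spred2, -0.18 to 0.53 for Spry2 and -0.074 to 2.85 for Spry4. Corrected log2 fold changes ranged from -0.24 to 0.024 for Araf, -0.32 to 0.075 for Braf, -0.19 to 2.32 for Ccnd1, -0.32 to 0.096 for Dusp1, -1.59 to 0.42 for Dusp5, -0.18 to 1.04 for Dusp6, -3.79 to 0.40 for Egr1, -0.30 to 0.27 for Egr3, -0.100 to 0.37 for Epha4, -1.44 to 9.43 for Etv4, -0.65 to 5.32 for Etv5, -1.46 to 1.58 for Fos, -0.62 to 3.0 for Fosb, -0.12 to 0.29 for Ier5, -1.08 to 0.40 for Jun, -0.019 to 0.18 for Jund, -0.34 to 0.088 for Klf2, -0.36 to 0.24 for Klf6, -0.11 to 0.092 for Klf10 and -0.60 to 0.58 for Spred2. Egr3, with 13 to 15 reads a library, and Fosl1 were too shallow to show a modest difference.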

Other observations

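Further genes that stood apart between the not extravasated libraries, chosen after their values were seen, are given as values. Myc, the growth-promoting transcription factor, had 118 and 122 CPM in extravasated and 108 and 38.7 CPM in not extravasated libraries, so not extravasated 2 was the lowest. Lif, a cytokine gene, had 5.83 and 5.74 CPM in extravasated and 11.8 and 1.56 CPM in not extravasated libraries. Etv1, the third PEA3 factor, had 3.71 and 4.63 CPM in extravasated and 14.0 and 2.55 CPM in not extravasated libraries, and the extravasated pair lay between the others for both genes. Zfp36, an early gene whose protein binds AU-rich mRNA, had 12.9 and 13.3 CPM in extravasated and 5.99 and 31.1 CPM in not extravasated libraries, the pattern of Fos. None of the 4 was called with all libraries (edgeR adjusted p = 0.251, 0.890, 0.363 and 0.577).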
